A study of Mus musculus with 4 samples.

Results

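Genes of fibroblasts and mural cells were examined in mouse lungs that carried 4T1 breast cancer metastases. They were 10 of the 56748 genes in the deposited count table, and membership was set by gene symbol: the platelet-derived growth factor (PDGF) receptors Pdgfra and Pdgfrb, the ligands Pdgfa and Pdgfb, the contractile genes Acta2 and Tagln, the activated fibroblast gene Fap, the pericyte genes Rgs5 and Cspg4, and the lung fibroblast transcription factor Tcf21. All mice were female BALB/cJ animals, 7 weeks old when 2000000 4T1-FLuc cells were given through the tail vein. 4T1-FLuc is a mouse triple-negative breast cancer line that expresses firefly luciferase. Saline-treated mice (2 samples, named PBS control in the treatment label) were compared with ADC/cmLumiOpto-treated mice (2 samples, labelled cmLumi-Olap & CD276-DM1). The ADC was an anti-CD276 antibody carrying mertansine (DM1), a microtubule inhibitor. cmLumiOpto was a gene therapy, delivered in antibody-coated exosomes that carry an AAV vector with a cfos promoter, that depolarizes cancer mitochondria when the luminescent substrate ViviRen is given. The dose of the ADC was 16 mg/kg in the labels and 8 mg/kg in the methods, which also give 2 mg/kg of ViviRen. Olap was not explained in the sources used here. The labels describe tumor cells harvested from the lung after 3 weeks of treatment, whereas the methods describe dissociated lung tissue from mice killed at a fixed loss of body weight.

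Fibroblasts make and maintain the connective tissue of the lung, and mural cells (pericytes on capillaries, smooth muscle cells on larger vessels) wrap the endothelium. PDGF ligands are secreted dimers that activate a pair of receptor tyrosine kinases. PDGFRA is typical of fibroblasts and binds most PDGF dimers, and PDGFRB is typical of pericytes and smooth muscle, which are recruited by PDGF-B released from endothelial cells. In tumors, fibroblasts can become activated, with more matrix, more actin stress fibers and surface expression of the protease FAP. Because the samples were bulk tissue, fewer cells of a type and less RNA per cell cannot be told apart in any of the values that follow.

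Each sample held between 15263375 and 19675436 counts. At that depth 3 counts corresponded to between 0.146 and 0.202 CPM (counts scaled by the normalized library size), a floor for counting error only. All 10 genes passed the expression filter and were among 15320 genes tested. In the quasi-likelihood test of edgeR, after Benjamini-Hochberg adjustment, an adjusted p under 0.05 was reached by 0 genes (0.0%) and so by 0 of the 10, while 3553 genes had an unadjusted p under 0.05. The share with an adjusted p under 0.05 was 9.99% of 13537 genes in DESeq2, 7.64% in edgeR's exact test, and 8.84% of 25563 genes in the quasi-likelihood test without the expression filter. The smallest two-sided p of an exact permutation test is 0.333 for groups of this size, so tests came from the fit across all genes. Nothing in the labels says which animals the samples came from, so p-values measure only the spread between these samples. Alveolar epithelial markers differed between the saline samples. The summed level of 9 such genes was 1742 CPM in saline replicate 1 and 474 CPM in saline replicate 2, against 5913 and 5084 CPM in ADC/cmLumiOpto replicates 1 and 2.

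The 10 genes did not differ in a single direction. Pdgfra, Pdgfrb and Acta2 were lower after ADC/cmLumiOpto at an unadjusted p under 0.05 (3 of 10, against 12.2% of all tested genes), and Rgs5 and Tcf21 were higher (2 of 10, against 11.0%). The other 5 genes did not reach that level. Of all genes at that level, 47.6% were higher, and 60.5% with upper-quartile normalization, where Pdgfra, Pdgfrb, Acta2, Rgs5 and Tcf21 kept the same directions. Neither treated sample reached a saline sample for Pdgfra, Pdgfrb, Acta2 and Cspg4 (4 of 10, against 28.8% of tested genes), and both exceeded the saline samples for Rgs5 and Tcf21 (2 of 10, against 28.1%). With 10 genes, counts so near these shares are not a result about the set. The median log2 fold change of the 10 genes was 0.041, with 5 fitted lower and 5 higher, beside 0.028 for all tested genes. This median was -0.25 without saline replicate 2, -0.22 without ADC/cmLumiOpto replicate 1 and -0.17 without ADC/cmLumiOpto replicate 2. DESeq2 and the exact test each gave 3 of the 10 genes an adjusted p under 0.05 (Pdgfra, Acta2 and Tcf21), against 9.99% and 7.64% of all genes. The fit without the expression filter gave 4, the same genes and Rgs5, against 8.84%.

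**Figure D1:**
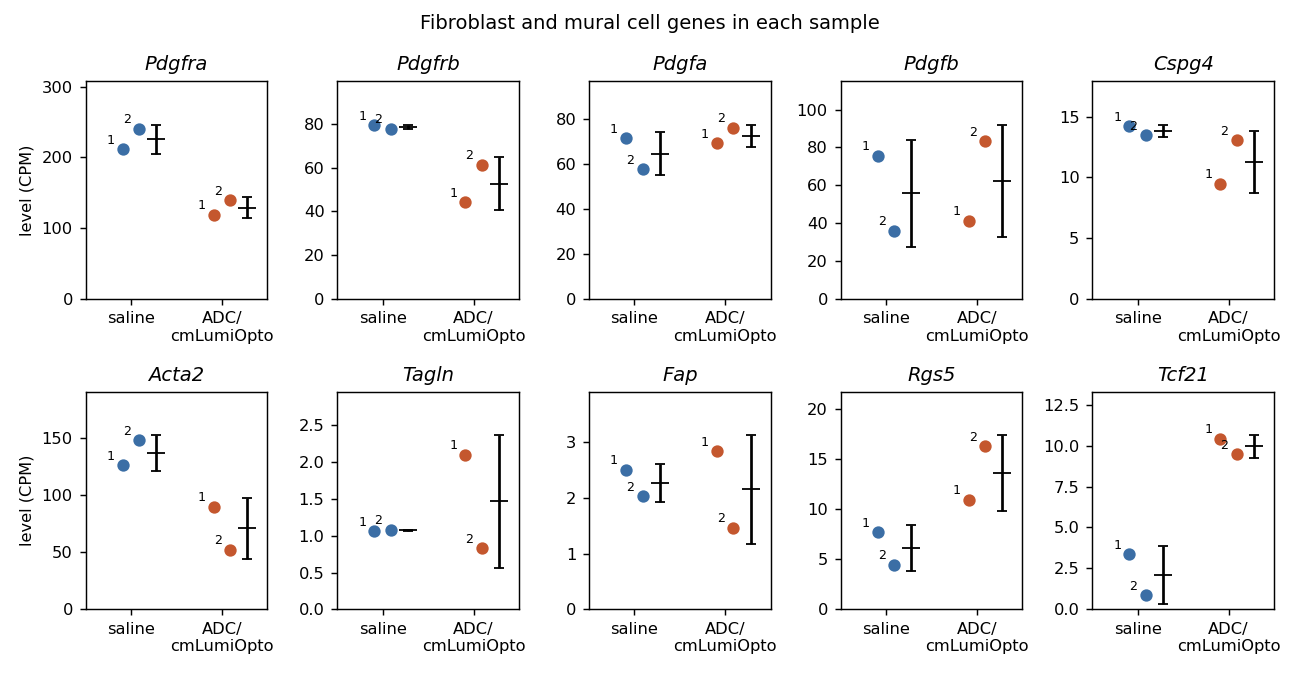
Level in CPM (y axis, from 0, a separate scale for each gene) of the 10 genes in the saline samples (blue) and ADC/cmLumiOpto samples (orange), with the replicate number beside each point and the mean ± SD (n = 2) in black. The groups are apart for Pdgfra, Pdgfrb, Cspg4, Acta2, Rgs5 and Tcf21 and overlap for Pdgfa, Pdgfb, Tagln and Fap.

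Both receptor genes were lower in the treated lungs. Pdgfra (ENSMUSG00000029231, chromosome 5, 75312953 to 75358876, plus strand) was at 211 and 240.2 CPM in saline replicates 1 and 2 and at 119 and 139 CPM in ADC/cmLumiOpto replicates 1 and 2. The treated samples lay well below the saline samples, and the samples of a group were close to each other. The log2 fold change of Pdgfra was -0.81 (standard error 0.17, 95% interval -1.22 to -0.39), and its adjusted p in edgeR was 0.116, a value it shared with many genes. It was 0.00331 in DESeq2, and the alternatives for Pdgfra gave values from 0.00219 to 0.460. Across all tested genes, which are not independent replicates, fold changes were lower for longer genes (Spearman's rho -0.34), and with this trend removed the log2 fold change of Pdgfra was -0.55. Pdgfrb (ENSMUSG00000024620, chromosome 18, 61178222 to 61218133, plus strand) was at 79.3 and 77.8 CPM in the saline samples and at 44.1 and 61.2 CPM in the treated samples. The saline samples almost coincided, while the treated samples were spread, the second lying nearer to saline than the first. For Pdgfrb the log2 fold change was -0.58 (standard error 0.20, 95% interval -1.06 to -0.092, adjusted p = 0.169 in edgeR). It was -0.36 without ADC/cmLumiOpto replicate 1. Per kilobase of gene length, the level of Pdgfra was 1.45 and 1.69 times that of Pdgfrb in the saline samples and 1.47 and 1.24 times in the treated samples, so the ratio of the receptors overlapped between groups. Positions here and in the following are those of the count table, for which the submitters' processing notes name the mm39 build. They differed from the GRCm38 annotation for all 10 genes, with equal span lengths.

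The ligand genes Pdgfa and Pdgfb overlapped between groups. Pdgfa (ENSMUSG00000025856, chromosome 5, 138961769 to 138983125, minus strand) was at 71.5 and 57.8 CPM in the saline samples and 69.2 and 76.2 CPM in the treated samples, the narrowest range of the 10 genes, with the highest sample 1.32 times the lowest. Its log2 fold change was 0.17 (standard error 0.18, 95% interval -0.26 to 0.60, adjusted p = 0.599 in edgeR). Of the exon bases of Pdgfa, 26.1% are shared with an lncRNA gene on the opposite strand in the GENCODE annotation of GRCm38, and the strand setting of the counting was not given in the sources used here. Pdgfb (ENSMUSG00000000489, chromosome 15, 79880075 to 79899178, minus strand) was at 75.7 and 35.9 CPM in the saline samples and 41.3 and 83.4 CPM in the treated samples. Its spread lay within the groups, since saline replicate 1 and ADC/cmLumiOpto replicate 2 were both high and the others both low. The log2 fold change of 0.16 (standard error 0.43, 95% interval -0.88 to 1.20, adjusted p = 0.853 in edgeR) was -0.28 without saline replicate 2 and -0.44 without ADC/cmLumiOpto replicate 2. PDGF-B is made by endothelial cells and stored in platelets. Summed endothelial markers (9 genes) were at 452 to 571 CPM in saline and 616 to 903 CPM in treated samples, and summed platelet markers (7 genes, 6 tested, 2 higher and 0 lower at an unadjusted p under 0.05) at 15.1 to 29.1 CPM and 24.3 to 33.6 CPM. Over all tested genes the shares at that level were 11.0% higher and 12.2% lower. The part of endothelial cells and platelets in the level of Pdgfb was not tested.

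Other genes of the PDGF pathway were fitted lower in 12 of 15 cases, and in 11 of the 15 both treated samples lay below saline. Of all tested genes, 7359 of 15320 were fitted lower and 28.8% had both treated samples below saline. At an unadjusted p under 0.05, 12.2% were lower and 11.0% higher. Here and in the following lists, genes named by their p were picked after their values were seen. Of 15 ligands, receptor-like and signaling genes, all tested, 5 had an unadjusted p under 0.05 and were lower (Plat, Sos1, Plcg1, Src and Stat3), 1 was higher (Nck1) and 9 did neither, with a median log2 fold change of -0.32. Plat encodes tissue plasminogen activator, which cleaves PDGF-C into its active form. It was at 94.96 and 158 CPM in the saline samples and 44.4 and 68.4 CPM in the treated samples, with no overlap, and its log2 fold change was -1.16 (standard error 0.31, adjusted p = 0.124 in edgeR). Pdgfc, a PDGFRA ligand, had a mean level of 33.9 CPM per kilobase in saline, above those of Pdgfa and Pdgfb. Its plain level was 175 and 170.5 CPM in saline and 150.5 and 108 CPM in treated samples. Pdgfd, a PDGFRB ligand, was low, at 2.44 and 4.11 CPM in saline and 6.18 and 5.71 CPM in treated samples. In the treated samples Pdgfc thus lay below saline and Pdgfd above, with log2 fold changes of -0.42 and 0.86 that had adjusted p values of 0.262 and 0.246 in edgeR. Pdgfrl, a receptor-like gene without a kinase domain, overlapped between groups, at 93.9 to 98.9 CPM in all 4 samples.

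**Figure D2:**
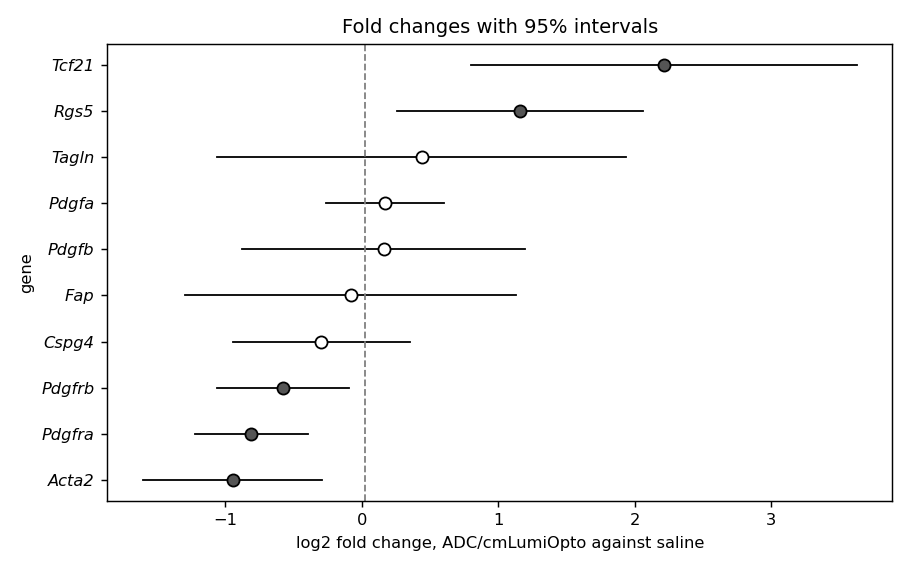
Log2 fold change of ADC/cmLumiOpto against saline (x axis) for the 10 genes (y axis), with 95% intervals from edgeR's quasi-likelihood fit, filled where the unadjusted p is under 0.05, and the median of all tested genes as a dashed line at 0.028. Acta2, Pdgfra and Pdgfrb lie to the left with intervals below 0, and Rgs5 and Tcf21 to the right with intervals above 0.

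Acta2 and Tagln are the contractile genes of the set. Acta2 encodes smooth muscle α-actin, a protein of smooth muscle cells and myofibroblasts, and Tagln encodes transgelin, an actin-binding protein of the same cells. The transcription of both is known to be driven by serum response factor through CArG boxes, motifs with CC and GG around a core of A and T letters. The Acta2 promoter is shown because Acta2 had the lowest fitted fold change of the 10 genes, beside that of Tcf21, which had the highest. Each line holds 250 bases upstream of the RefSeq start in GRCm38.p6, 5′ to 3′ on the minus strand of the genome, at chr19:34255374-34255623 and chr10:22820144-22820393. Capitals mark CArG boxes with 1 mismatch allowed in the 6-letter core.
Acta2: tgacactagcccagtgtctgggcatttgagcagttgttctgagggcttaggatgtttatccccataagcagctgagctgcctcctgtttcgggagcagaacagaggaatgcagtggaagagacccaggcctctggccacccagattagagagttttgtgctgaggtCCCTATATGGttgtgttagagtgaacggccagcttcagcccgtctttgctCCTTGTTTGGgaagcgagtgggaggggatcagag
Tcf21: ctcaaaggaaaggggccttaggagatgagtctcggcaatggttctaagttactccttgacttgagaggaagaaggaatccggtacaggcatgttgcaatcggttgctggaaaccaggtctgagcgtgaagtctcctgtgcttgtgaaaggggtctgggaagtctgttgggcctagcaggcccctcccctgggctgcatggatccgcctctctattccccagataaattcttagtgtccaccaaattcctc

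The Acta2 window held 2 matches, CCCTATATGG from 84 to 75 bases and CCTTGTTTGG from 34 to 25 bases upstream of the start. A match on one strand is also a match on the other. Of 32851 windows of this length, 8.59% held a match with 1 mismatch allowed and 1.47% a perfect match. Windows were found for 6 of the 10 genes (Acta2, Cspg4, Pdgfa, Pdgfra, Rgs5 and Tcf21), and only that of Acta2 held a match.

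In the counts, Acta2 (ENSMUSG00000035783, chromosome 19, 34218490 to 34232990, minus strand) was at 126 and 148 CPM in the saline samples and at 89.7 and 52.2 CPM in the treated samples. Both treated samples lay below saline, ADC/cmLumiOpto replicate 2 the farther. Its log2 fold change was -0.95 (standard error 0.27, 95% interval -1.60 to -0.29, adjusted p = 0.136 in edgeR), and it was -0.61 without ADC/cmLumiOpto replicate 2 and -1.39 without replicate 1. In DESeq2 the adjusted p of Acta2 was 0.0244, and it ran from 3.47e-04 to 0.478 across alternatives. Tagln (ENSMUSG00000032085, chromosome 9, 45840917 to 45847356, minus strand) was low, with 17 and 16 counts in saline and 37 and 17 after treatment, or 1.06 and 1.08 against 2.10 and 0.829 CPM. Only ADC/cmLumiOpto replicate 1 stood out, and the fold change of 0.44 on the log2 scale (standard error 0.62, 95% interval -1.06 to 1.94, adjusted p = 0.702 in edgeR) was -0.36 without it. The difference between the fold changes of Acta2 and Tagln was not tested, and the interval of Tagln holds the value of Acta2. Acta2 exceeded Tagln by 107 and 124 times per kilobase in the saline samples and by 38.7 and 57.0 times in the treated samples. In the GENCODE annotation of GRCm38, 67.9% of the exon bases of Tagln are shared with genes on the opposite strand, mainly Pcsk7, which had between 342 and 599 counts. How reads in such stretches were assigned was not given, so the level of Tagln is uncertain.

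Most other contractile genes lay closer to saline. Of 15 listed genes, 14 were tested (Myocd had at most 5 counts), 2 were lower at an unadjusted p under 0.05 (Smtn and Cald1), 0 were higher and 12 did neither, with a median log2 fold change of -0.23. The shares of all tested genes at that level were 12.2% lower and 11.0% higher, and counts this near them are not a result about the list. By sign alone, 11 of the 14 were fitted lower and 3 higher, beside 7359 of 15320 tested genes fitted lower. Both treated samples lay below saline in 4 of the 14 and above in 2, against 28.8% and 28.1% of tested genes. Myh11, the smooth muscle myosin heavy chain, was at 9.25 and 8.70 CPM in saline and 11.1 and 9.66 CPM in treated samples, for which the log2 fold change was 0.21 (adjusted p = 0.666 in edgeR). Cnn1, which encodes calponin, was at 7.50 and 12.5 CPM in saline and 7.08 and 4.29 CPM in treated samples (log2 fold change -0.82, adjusted p = 0.269 in edgeR). Des, the intermediate filament of muscle, and Myl9, a myosin light chain, overlapped between groups, with log2 fold changes of -0.32 and -0.062. Summed markers of tumor and airway epithelium (9 genes) were at 3159 to 3470 CPM in saline and 2984 to 3086 CPM in treated samples, with 1 gene lower and 1 higher at an unadjusted p under 0.05. Mesothelial markers (6 genes) overlapped, at 146 to 235 and 155 to 213 CPM, with 1 gene lower and 1 higher. The sums of cardiac muscle markers (7 genes, 4 tested, 0 with an unadjusted p under 0.05) were 90.0 to 100.1 and 82.0 to 123 CPM. Nearly all of these sums was Tnnt2, with 1539 and 1319 counts in saline and 1350 and 2413 in treated samples. No other cardiac marker had more than 58 counts in any sample, so their overlap is that of Tnnt2. Per 1000 CPM of the tumor and airway epithelial markers, Acta2 was at 39.8 and 42.5 CPM in saline and 29.1 and 17.5 CPM in treated samples, still without overlap. The part of these cell types in the level of Acta2 was not tested.

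Fap was the lowest of the 10 genes per kilobase. The gene (ENSMUSG00000000392, chromosome 2, 62331287 to 62404419, minus strand), which encodes a surface protease of activated fibroblasts, had 40 and 30 counts in saline and 50 and 30 after treatment, or 2.50 and 2.02 against 2.83 and 1.46 CPM. The groups overlapped, and the log2 fold change was -0.080 (standard error 0.50, 95% interval -1.29 to 1.13, adjusted p = 0.942 in edgeR), an interval that holds changes of more than 2-fold in either direction. Per kilobase, 8.76% of tested genes were below Fap. Of 15 other genes listed for activated fibroblasts, all tested, 7 were lower at an unadjusted p under 0.05 (Lrrc15, Inhba, Grem1, Prrx1, Tnc, Sfrp1 and Loxl1), 1 was higher (Aspn) and 7 did neither, with a median log2 fold change of -0.93. Inhba encodes an activin subunit, Grem1 an antagonist of bone morphogenetic proteins, Tnc the matrix protein tenascin C and Loxl1 a matrix cross-linking enzyme. The treated samples lay below saline without overlap in 9 of the 15 genes and above in 1. Of all tested genes, 12.2% were lower and 11.0% higher at an unadjusted p under 0.05, and 28.8% and 28.1% lay below and above without overlap. Alveolar epithelial markers were higher in the same samples (median log2 fold change 2.06), and their part in these values was not tested. Cthrc1, a secreted collagen-associated protein, was at 8.25 and 4.38 CPM in saline and 3.63 and 1.27 CPM in treated samples (log2 fold change -1.38, adjusted p = 0.227 in edgeR). This was -2.31 without ADC/cmLumiOpto replicate 1 and -0.80 without replicate 2. Postn, the matricellular protein periostin, Thy1, a fibroblast surface antigen, and Pdpn, which alveolar type 1 cells also express, overlapped between groups, with log2 fold changes of 0.29, -0.045 and 0.53.

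**Figure D3:**
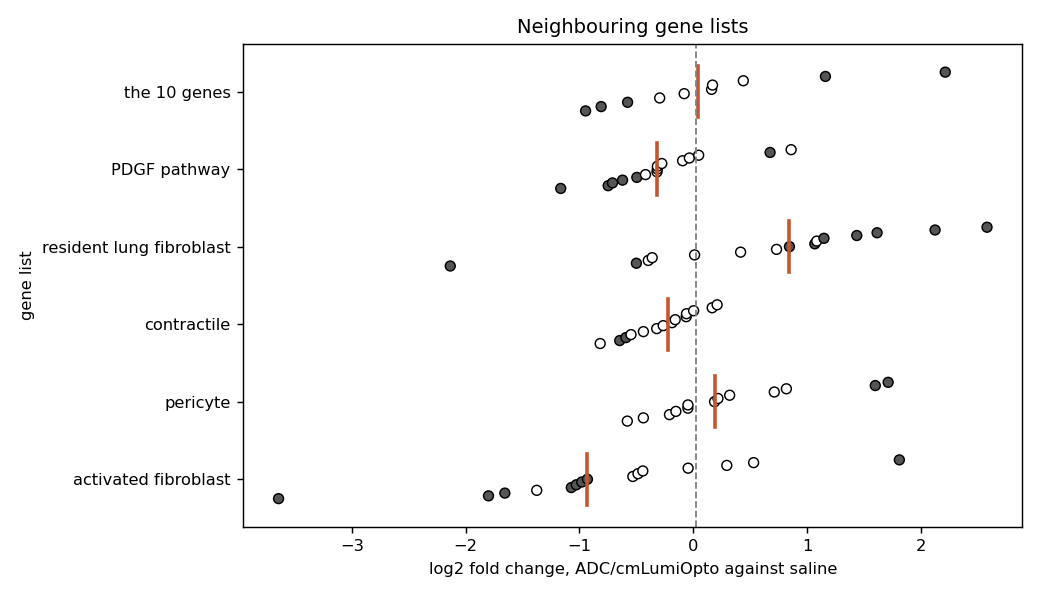
Log2 fold change of ADC/cmLumiOpto against saline (x axis) of each tested gene in the 10 genes and 5 neighbouring lists (y axis), filled where the unadjusted p is under 0.05, with the median of each list in orange and the median of all tested genes as a dashed line. Activated fibroblast genes lie mostly to the left (median -0.93) and resident lung fibroblast genes mostly to the right (median 0.84).

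The pericyte genes Rgs5 and Cspg4 differed from each other. Rgs5 (ENSMUSG00000026678, chromosome 1, 169483070 to 169523382, plus strand), a regulator of G protein signaling, was at 7.69 and 4.45 CPM in the saline samples and at 10.9 and 16.2 CPM in the treated samples. Every treated sample lay above every saline sample, although the spread within each group was wide. The log2 fold change was 1.16 (standard error 0.38, 95% interval 0.26 to 2.06, adjusted p = 0.152 in edgeR) and was 0.82 without saline replicate 2 and 1.60 without saline replicate 1. Cspg4 (ENSMUSG00000032911, chromosome 9, 56772317 to 56807154, plus strand), which encodes the proteoglycan NG2, was at 14.2 and 13.5 CPM in saline and 9.46 and 13.1 CPM in treated samples. ADC/cmLumiOpto replicate 2 was just below the saline samples and replicate 1 farther below, and the log2 fold change was -0.30 (standard error 0.27, 95% interval -0.94 to 0.35, adjusted p = 0.541 in edgeR). With the trend of the values on gene length removed it was -0.0079. Within a library, Cspg4 was at 0.082 and 0.080 times the level of Pdgfrb per kilobase in saline and 0.099 and 0.098 times in treated samples. Rgs5 lay farther apart between groups on this scale, at 0.12 and 0.069 times the level of Pdgfrb in saline and 0.30 and 0.32 times in treated samples.

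Among 13 other pericyte genes, all tested, 0 were lower and 2 higher at an unadjusted p under 0.05 (Cox4i2 and Higd1b), and 11 did neither, with a median log2 fold change of 0.19. Of all tested genes, 12.2% were lower and 11.0% higher at that level. With so few genes, counts this near the shares are not a result about the list. Higd1b, a mitochondrial protein gene typical of lung pericytes, was at 3.75 and 2.09 CPM in the saline samples and at 9.01 and 10.2 CPM in the treated samples. Its groups were well apart, and the log2 fold change was 1.71 (standard error 0.39, adjusted p = 0.117 in edgeR). Notch3, the Notch receptor of mural cells, Kcnj8, a potassium channel subunit, and Mcam, an adhesion molecule also made by endothelial cells, overlapped between groups, with log2 fold changes of 0.19, -0.047 and -0.047. Of the 9 endothelial markers, 5 were higher and 0 lower at an unadjusted p under 0.05 in the same samples, with the sums given for Pdgfb. Their part in the level of Rgs5 was not tested. Per 1000 CPM of these markers, Rgs5 was at 13.5 and 9.85 CPM in saline and 17.8 and 18.0 CPM in treated samples. The treated samples still lay above saline on this scale. On the same scale Pdgfrb was at 139 and 172 CPM in saline and 71.6 and 67.8 CPM in treated samples.

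Tcf21 had the largest fitted fold change of the 10 genes in either direction. It encodes a basic helix-loop-helix transcription factor of lung fibroblasts, in adult mice mainly of lipid-bearing fibroblasts beside the alveoli. Tcf21 (ENSMUSG00000045680, chromosome 10, 22693180 to 22696073, minus strand) had 54 and 13 counts in saline and 184 and 194 after treatment, or 3.38 and 0.876 against 10.4 and 9.46 CPM. The treated samples were close to each other and lay above both saline samples, which differed from each other. The log2 fold change was 2.21 (standard error 0.59, 95% interval 0.80 to 3.63, adjusted p = 0.123 in edgeR's quasi-likelihood test). Without saline replicate 1 it was 3.48, with an adjusted p of 0.0219 in edgeR, where alternatives gave adjusted p values from 7.44e-06 to 0.338. Without saline replicate 2 it was 1.56. In DESeq2 the adjusted p of Tcf21 was 0.00687.

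Tcf21 was compared with a list of resident lung fibroblast genes. Of 15 listed genes, all tested, 7 were higher at an unadjusted p under 0.05 (Itga8, Inmt, Mfap4, Foxf1, Pi16, Dpt and Gpc3), 2 were lower (Dcn and Lum) and 6 did neither, with a median log2 fold change of 0.84. The treated samples lay above saline without overlap in 10 of the 15 genes and below in 2. The shares of all tested genes were 11.0% higher and 12.2% lower at an unadjusted p under 0.05, and 28.1% above and 28.8% below without overlap. Itga8, an integrin subunit of alveolar fibroblasts, was at 12.0 and 6.67 CPM in saline and 23.9 and 17.6 CPM in treated samples, and its log2 fold change was 1.15 (adjusted p = 0.141 in edgeR). Col13a1, a collagen of the same cells, was at 3.56 and 1.28 CPM in saline and 3.68 and 4.39 CPM in treated samples (log2 fold change 0.73, adjusted p = 0.451 in edgeR). This was 1.64 without saline replicate 1 and 0.18 without saline replicate 2. Npnt, a basement membrane protein that epithelial and tumor cells can also make, was at 452 and 658 CPM in saline and 421 and 422 CPM in treated samples, a log2 fold change of -0.40. Pi16, a gene of fibroblasts around larger vessels and airways, was high in ADC/cmLumiOpto replicate 2 alone, at 39.9 CPM against 7.20 CPM in replicate 1 and 6.81 and 3.98 CPM in saline. Dcn, the collagen-binding proteoglycan decorin, was at 126 and 91.9 CPM in saline and 79.6 and 74.4 CPM in treated samples (log2 fold change -0.50, adjusted p = 0.203 in edgeR).

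Of 9 markers of alveolar epithelium, all tested, 8 were higher and 0 lower at an unadjusted p under 0.05, with a median log2 fold change of 2.06, and no listed marker was at 0 in all samples. The ninth, Abca3, a lipid transporter of alveolar type 2 cells, went the other way, with both treated samples below saline (log2 fold change -0.23, adjusted p = 0.438 in edgeR). Per 1000 CPM of their sum, Tcf21 was at 1.94 and 1.85 CPM in the saline samples and at 1.76 and 1.86 CPM in the treated samples. The highest sample was thus 1.10 times the lowest, where the plain level of Tcf21 spanned 11.9 times. This scale was chosen after the data were seen, and the make-up of the sum differed between samples. The surfactant gene Sftpc had 16263 and 2585 counts in saline and 76235 and 70262 in treated samples. Abca3 had 2340 and 1893 counts in saline and 1995 and 2484 in treated samples. Scales of single alveolar markers were not tried, so the narrow range of Tcf21 belongs to this sum. On the other scales the groups stayed apart, with Tcf21 at 5.91 and 1.94 CPM in saline and 16.9 and 10.5 CPM in treated samples per 1000 CPM of endothelial markers, and at 1.07 and 0.253 CPM against 3.38 and 3.17 CPM per 1000 CPM of tumor and airway epithelial markers. Per 1000 CPM of the alveolar markers, the 13 counts of saline replicate 2 alone allow 0.984 to 3.16 CPM (exact Poisson 95% interval, counting error only). Differences as small as those between samples on the alveolar scale cannot be resolved at this depth. Rgs5, by contrast, was at 4.41 and 9.38 CPM per 1000 CPM of alveolar markers in saline and 1.85 and 3.19 CPM in treated samples, and Pdgfra at 121 and 507 CPM against 20.0 and 27.3 CPM. Leukocyte markers (9 genes, 2 higher and 0 lower at an unadjusted p under 0.05) overlapped, at 569 to 999 CPM in saline and 991 to 3716 CPM in treated samples. Of all tested genes, 11.0% were higher and 12.2% lower at that level. Most of the highest sum, that of ADC/cmLumiOpto replicate 2, was S100a8, with 63353 counts there. S100a8 had 7262 and 2526 counts in saline and 7452 in ADC/cmLumiOpto replicate 1. Whether the amount of alveolar tissue in each sample had a part in the difference of Tcf21 and the resident fibroblast genes was not tested.

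**Figure D4:**
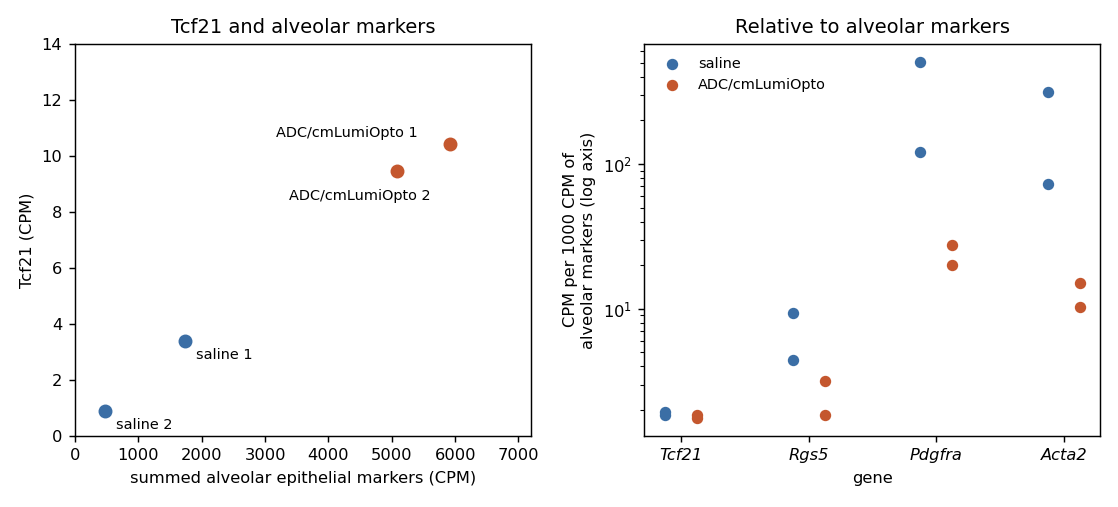
Left, Tcf21 in CPM (y axis) against the summed CPM of 9 alveolar epithelial markers (x axis) in each of the 4 samples. Right, CPM per 1000 CPM of these markers (y axis, log scale) for 4 genes in saline (blue) and ADC/cmLumiOpto (orange) samples, where Tcf21 stays between 1.76 and 1.94 and Pdgfra spans 20.0 to 507.

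Levels of different genes were compared per kilobase of gene length. In saline the order of the mean levels in CPM per kilobase was Acta2 (62.2), Pdgfra (22.5), Pdgfa (20.7), Pdgfrb (14.3), Pdgfb (13.4), Rgs5 (1.34), Cspg4 (1.16), Tcf21 (0.905), Tagln (0.539) and Fap (0.399). The values of Pdgfra and Pdgfa overlapped between the saline samples, as did those of Pdgfrb and Pdgfb and of Rgs5 and Cspg4. Those of Tcf21 overlapped with Rgs5, Cspg4, Tagln and Fap. After ADC/cmLumiOpto the order was Acta2 (32.3), Pdgfa (23.3), Pdgfb (15.0), Pdgfra (12.8), Pdgfrb (9.61), Tcf21 (4.23), Rgs5 (2.99), Cspg4 (0.944), Tagln (0.736) and Fap (0.379). In mean level Tcf21 thus stood above Rgs5 and Cspg4, with which its saline samples had overlapped. Pdgfa and Pdgfb stood above Pdgfra in mean level, although the samples of Pdgfb overlapped those of Pdgfra and of Pdgfrb. The treated samples of Acta2 and Pdgfa also overlapped, as did those of Cspg4 and Tagln and of Tagln and Fap. Over all 4 samples, 92.6% of tested genes were below Acta2 per kilobase and 34.4% below Tcf21.

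**Figure D5:**
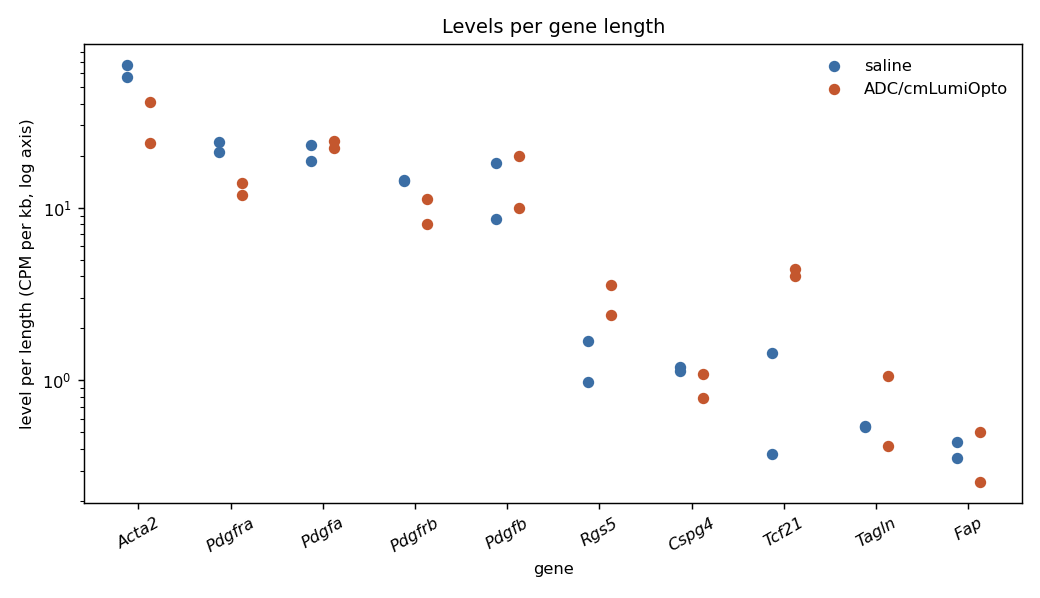
Level in CPM per kilobase of gene length (y axis, log scale) for the 10 genes in order of their saline mean (x axis), 1 point per sample, saline in blue and ADC/cmLumiOpto in orange. By group mean Acta2 is highest and Fap lowest in both groups, and Tcf21 shows the widest gap between groups.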

How the data were processed

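RNA from mouse lungs with 4T1 metastases was sequenced by poly(A) selection on an Illumina platform. The authors deposited counts, unnormalized whole numbers of reads, for 56748 genes. Reads were aligned with HISAT2, and the program that counted them was not given in the sources used here. The methods name GRCm38 and the submitters' processing notes mm39. The methods give 4 samples per group, whereas the counts held 2 per group, all analyzed here. Columns were matched to samples by the library names in the sample descriptions. Same-group samples differed by more than counting noise.

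Analysis used edgeR 4.0.16 in R 4.3.3: filterByExpr (minimum count 10, minimum total 15), TMM, estimateDisp, glmQLFit and glmQLFTest with a prior count of 0.125, and Benjamini-Hochberg adjustment over all tested genes. The standard error is the log2 fold change divided by the square root of F, and 95% intervals use the degrees of freedom of the fit. Alternatives included DESeq2 1.42.0. The code was checked on counts simulated with known changes, which does not show how well the tests suit these samples. Genes to be named with values were fixed by name, the 10 genes and 22 usual defining genes of the neighboring lists. List genes named by an unadjusted p under 0.05 were chosen after their values were seen. The 10 genes and all 12 lists (PDGF pathway, resident lung fibroblast, contractile, pericyte, activated fibroblast, and markers of 7 other cell types) were chosen with earlier results of these data known. Levels relative to marker sums were added after the data were seen. The alternatives also covered other normalizations and filters, the exact test, protein-coding genes only, a gene length trend, a replicate block, and each sample left out. Promoter sequences are from RefSeq (GRCm38.p6).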

Additional observations from a re-analysis of the deposited data

How the results depend on the processing

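Genes with an adjusted p under 0.05 numbered 0 in edgeR's quasi-likelihood test, 1353 in DESeq2, 1170 in the exact test, 2259 without the expression filter, 607 with a replicate block, and 0 to 218 with a sample left out, where the lone sample of a group was assumed to vary like the other group. They numbered 0 of the 10 genes in the quasi-likelihood test, 3 in DESeq2 and in the exact test, and 4 without the filter. The shares of all genes were 9.99% in DESeq2, 7.64% in the exact test and 8.84% without the filter. With the replicate block they numbered 2 of the 10 (Pdgfra and Tcf21), beside 607 of 15320 tested genes. Nothing in the labels pairs samples of the same number, and over genes the deviations of the 2 pairs from their group means correlated at 0.099. At an unadjusted p under 0.05 in edgeR's quasi-likelihood test there were 5 of the 10 genes, 3 lower and 2 higher. Over all tested genes the shares at that level were 12.2% lower and 11.0% higher. The median of the 10 genes ranged from -0.25 to 0.19 with a sample left out. With upper-quartile normalization, 60.5% of genes at an unadjusted p under 0.05 were higher, against 47.6% with TMM.

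Of the 10 genes, Pdgfb changed sign without saline replicate 2 (-0.28) and without ADC/cmLumiOpto replicate 2 (-0.44), Tagln without ADC/cmLumiOpto replicate 1 (-0.36), and Fap with upper-quartile normalization (0.0094), with the gene length trend removed (0.031), without saline replicate 1 (0.071) and without ADC/cmLumiOpto replicate 2 (0.32). With a sample left out, Pdgfb ranged from -0.44 to 0.79, Tagln from -0.36 to 0.96 and Fap from -0.63 to 0.32. The other 7 genes kept their sign in every alternative run. Among the neighboring genes fixed by name, with upper-quartile normalization the sign changed for Pdgfrl (0.051), Myl9 (0.024), Kcnj8 (0.036), Mcam (0.035) and Thy1 (0.045), and with library size alone for Pdgfrl (0.012), Kcnj8 (0.0060) and Mcam (0.0093). With at least 10 counts in every sample it changed for Pdgfrl (0.0040). With a sample left out, Des ranged from -0.60 to 0.0076, Myl9 from -0.15 to 0.020, Notch3 from -0.51 to 0.65, Kcnj8 from -0.26 to 0.18, Mcam from -0.40 to 0.23, Postn from -0.13 to 0.74 and Thy1 from -0.49 to 0.29. The cause of these changes was not tested. Tagln and Fap had at most 50 counts in any sample.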
